A study of Mus musculus with 4 samples.

Results

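The genes Atf3, Jdp2, Batf, Batf2 and Batf3, 5 of 21887 protein-coding genes on mouse chromosomes 1-19, X and Y, were examined for peaks of phosphorylated ATF2 in blood stem cells. They were chosen by name as inhibitory or lineage-restricted partners within the AP-1 group of transcription factors. A peak was counted at a gene end when its summit, the base of highest coverage, lay within 1 kb of either end of the gene. Peaks over the gene or within 50 kb of it were listed as well. The cells were bone marrow haematopoietic stem cells of C57BL/6J mice of wild-type genotype, sorted as lineage-negative, Sca-1+, Kit+, CD48- and CD150+. All groups share this genotype and no treatment is given; the age of the mice is not in the labels used here. CUT&Tag, in which an antibody brings a transposase to chromatin so that nearby DNA is cut and tagged, was run with 2 antibodies on 2 libraries each. One recognises ATF2 phosphorylated at T69/71 by the sample titles (T67/71 in the antibody field), the other ATF2 phosphorylated at S490/498. The labels name no separate animals for the 2 libraries of each antibody, so the spread between them may be technical.

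AP-1 factors are leucine-zipper proteins that bind DNA only as dimers, and the choice of partner decides which sequence is bound and whether transcription is raised or lowered. ATF2 pairs with Jun proteins and with itself, and stress kinases phosphorylate its N-terminal threonines. ATF3 is a rapidly induced stress factor that often acts as a repressor, and its promoter is a known target of ATF2 and Jun. JDP2 lacks a classical activation domain and represses as a dimer with Jun proteins or ATF2. BATF, BATF2 and BATF3 are short proteins without an activation domain that pair with Jun proteins and, together with IRF factors, direct gene expression in lymphoid, macrophage and dendritic cells.

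Of the 4 libraries, replicate 2 of S490/498 stood apart. The T69/71 libraries held 12464 and 14716 peaks, replicate 1 of S490/498 held 7132 and its replicate 2 held 435. The lowest background coverage in replicate 2 of S490/498 was 17.4 times that of replicate 1. The median number of fragments over a summit was 8, 9, 8 and 16 in the same order. The peak names inside the lists do not follow the titles: both S490/498 lists carry the prefix ATF2-2.q10, while the T69/71 lists carry ATF2-1.q10 and P-ATF-1.q10. The titles were followed. A peak list measures no expression, so the cell type could not be checked that way. Of 12 blood stem cell marker genes 3 had a gene-end peak in both T69/71 libraries, and of 26 markers of other blood cells 3 did, beside 21.1% of all protein-coding genes.

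The sequences below are the promoters that carry the main observations. Each is given 5′ to 3′ along the gene's own strand, from RefSeq on GRCm38.p6, the RefSeq assembly of the mm10 build that the submitters name. The promoter table held entries for 4 of the 5 genes, with no entry for Batf2. Searched on both strands were the cyclic AMP response element (CRE) TGACGTCA, its core TGACGT, the AP-1 word TGANTCA and the C/EBP-ATF word TGANGCAA, where N is any base. The core lies within the full CRE. Capitals mark matches, written as they read on the printed strand, so a match on the other strand appears as its complement. The Atf3 stretch is chr1:191183334-191183583 on the minus strand and ends at the base before the start. The Jdp2 stretch is chr12:85599166-85599415 on the plus strand, before one of its 3 listed starts. For Batf, whose promoter had no peak, 30 bases around the match are given, chr12:85686610-85686639 on the plus strand.
Atf3: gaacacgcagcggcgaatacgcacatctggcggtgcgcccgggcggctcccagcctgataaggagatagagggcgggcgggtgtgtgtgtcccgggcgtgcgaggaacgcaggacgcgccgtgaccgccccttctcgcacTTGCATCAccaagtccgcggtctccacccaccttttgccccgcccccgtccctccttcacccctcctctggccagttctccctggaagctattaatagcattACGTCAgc
Jdp2: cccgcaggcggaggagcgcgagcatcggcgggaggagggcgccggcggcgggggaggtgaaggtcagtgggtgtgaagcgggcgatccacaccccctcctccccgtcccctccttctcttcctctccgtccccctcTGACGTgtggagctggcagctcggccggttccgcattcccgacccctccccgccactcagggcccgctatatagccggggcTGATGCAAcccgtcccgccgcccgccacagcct
Batf: tttctaacttgtTGACGTttccgcccatgt

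In the Atf3 promoter the CRE core lay 8 to 3 bp before the start and a C/EBP-ATF word lay 110 to 103 bp before it. The printed Jdp2 promoter also held both. Its core lay 114 to 109 bp and its C/EBP-ATF word 33 to 26 bp before the start at 85599416. The promoters of the other listed Jdp2 starts, 85599105 and 85600018, held none of the words searched. Batf had a core 98 to 93 bp before its start, and the promoter of Batf3 held none of the words searched. Of the 6 promoters listed for these genes, 3 held a core, 2 held both words, and the full CRE and the AP-1 word were found in 0. Among 32817 promoters of 300 bp, 7.51% held the core, 3.70% the C/EBP-ATF word, 0.195% both, 1.79% the full CRE and 7.81% the AP-1 word. Promoters with a summit in replicate 1 of T69/71, replicate 2 of T69/71 and replicate 1 of S490/498 held the core at 22.2%, 18.1% and 26.5%. They held the full CRE at 7.49%, 5.26% and 9.19%, beside 1.79% of all promoters. In the same libraries they held the AP-1 word at 4.08%, 3.94% and 3.45%, and the C/EBP-ATF word at 3.34%, 3.21% and 3.80% (3.70% of all promoters). These shares were not tested, promoters of 1 gene can overlap, and a match is not shown to be a binding site.

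Atf3 had a gene-end peak, at its start, in 3 of the 4 libraries. In both replicates 1 it was the only gene-end peak among the 5 genes. In replicate 2 of T69/71 Jdp2 also had one, with a lower fold (7.09 against 8.34 for Atf3). Atf3 lies at chr1:191170296-191183333 and is read from its upper end. The peak spanned chr1:191183053-191183707 in replicate 1 of T69/71, chr1:191183214-191183695 in replicate 2 and chr1:191183076-191183682 in replicate 1 of S490/498. Each of these peaks covered the whole 300 bp promoter and both of its marked words, and no end of another gene lay within 1 kb of their summits. Fold enrichment at the summit, the authors' value relative to each library's own background, was 14.1 and 8.34 in replicates 1 and 2 of T69/71 and 14.7 in replicate 1 of S490/498. The fragments recovered over the summit numbered 64, 20 and 47. Replicate 2 of S490/498 had no peak there, and its nearest summit lay 868 kb from the gene.

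By −log10 q, the authors' significance at the summit, the Atf3 peak took rank 271 of 12464 in replicate 1 of T69/71. It took rank 3000 of 14716 in replicate 2 and rank 170 of 7132 in replicate 1 of S490/498. The peak was thus in the top 2.17% and 2.38% of both replicates 1 but in the top 20.4% of replicate 2 of T69/71. Ranked by fold enrichment instead, it was in the top 3.67% and 2.45% of both replicates 1 and the top 27.9% of replicate 2 of T69/71. At 655, 482 and 607 bp it was wider than 92.6%, 91.6% and 92.7% of the peaks in these lists. As a background chosen after these values were seen, 249 regions ranked within 1 percentage point of it in replicate 1 of T69/71. Of these, 100% also had a peak in replicate 2 of T69/71, 99.2% in replicate 1 of S490/498 and 9.64% in replicate 2 of S490/498. Their median rank in replicate 2 of T69/71 was the top 3.81%, and 16 of them (6.43%) ranked as low there as Atf3 or lower. Both the 249 and the 16 include the Atf3 region itself.

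**Figure D1:**
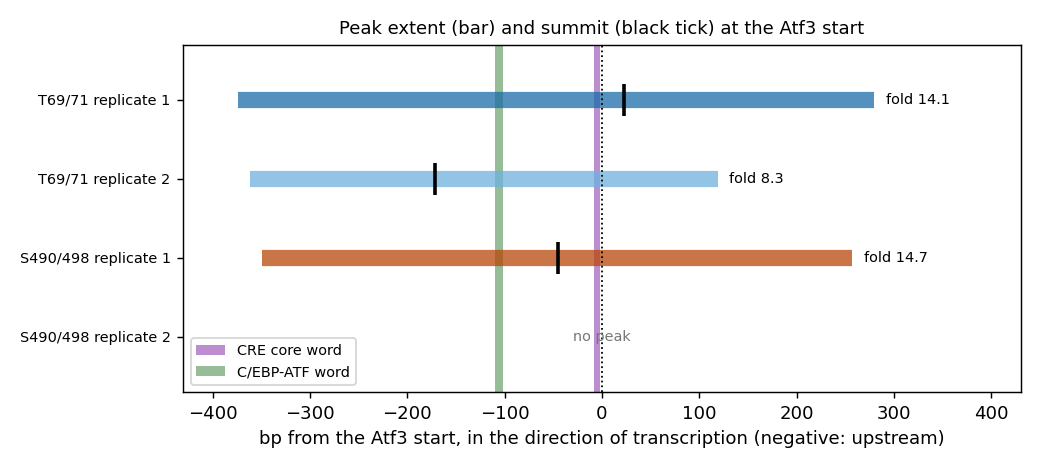
Extent (bars) and summit (black ticks) of the peak at the Atf3 start in each library, in bp from the start along the direction of transcription, with the positions of the CRE core and the C/EBP-ATF word. The summits of both replicates 1 lay within 45 bp of the start, that of replicate 2 of T69/71 lay 172 bp upstream, and replicate 2 of S490/498 had no peak.

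The summit was not at the same base in the 3 libraries. It lay 23 bp inside the gene in replicate 1 of T69/71, 172 bp upstream in replicate 2 and 45 bp upstream in replicate 1 of S490/498. Its distance from the CRE core was 26, 164 and 37 bp, and from the C/EBP-ATF word 126, 62 and 58 bp. The genes most like Atf3 were sought among 3082 other genes with a gene-end peak in exactly the same 3 libraries, by the mean absolute difference of the 3 ranks in percentage points. Cntrob, a centriole protein gene, and Trappc1, a vesicle trafficking gene, were closest at 0.992 points with identical values. Plekha4 and Ppp1r15a, which encodes a stress-induced phosphatase subunit, followed at 1.05 points with identical values, and Ogfod2 at 1.29 points. Genes with identical values in all 3 libraries may share a peak, so these genes need not be separate matches. The comparison describes ranks over 3 libraries only.

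A second region in the same 3 libraries lay about 41.0 kb upstream of the Atf3 start, at the lower end of the long noncoding RNA gene D730003I15Rik. It was 1 peak in replicate 1 of T69/71, chr1:191224099-191224945, with a fold enrichment of 8.30 and 21 fragments. In replicate 2 it was split into 2 peaks with folds of 5.33 and 8.32, and in replicate 1 of S490/498 it was 1 peak with 7.96. Its summits lay 41.0 kb, 41.2 and 41.6 kb, and 40.9 kb upstream of Atf3 in that order. In human cells ATF3 is known to be transcribed also from a promoter further upstream; whether this mouse region corresponds to it was not tested. The region ranked in the top 19% of replicate 1 of T69/71 and the top 21.0% of replicate 1 of S490/498, well below the peak at the start in both. In replicate 2 of T69/71 the difference was small. There the stronger of its 2 peaks had a fold of 8.32 and the start 8.34, with ranks by −log10 q in the top 29.9% and 20.4%.

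Between these regions, peaks were found in 1 library each. Replicate 1 of T69/71 had peaks 10.6 kb and 18 kb upstream of Atf3, with folds of 5.34 and 4.94. Replicate 2 of T69/71 had 1 peak 14.8 kb upstream, chr1:191198042-191198362, with a fold of 10.4, 20 fragments and rank 1992, above the rank of the Atf3 start in that library. Of 1459 regions ranked within 5 points of it there, a background chosen after its value was seen, 217 (14.9%) had a peak in no other library. On the other side, a region 44.3 kb beyond the lower end of Atf3 and 17.1 kb beyond Batf3, near the noncoding gene Gm46178, had peaks in replicate 2 of T69/71 (fold 8.09) and replicate 1 of S490/498 (fold 3.76). Single weaker peaks lay at the noncoding genes Gm31640 (replicate 2 of T69/71, fold 4.80) and Gm31696 (replicate 1 of T69/71, fold 3.29).

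**Figure D2:**
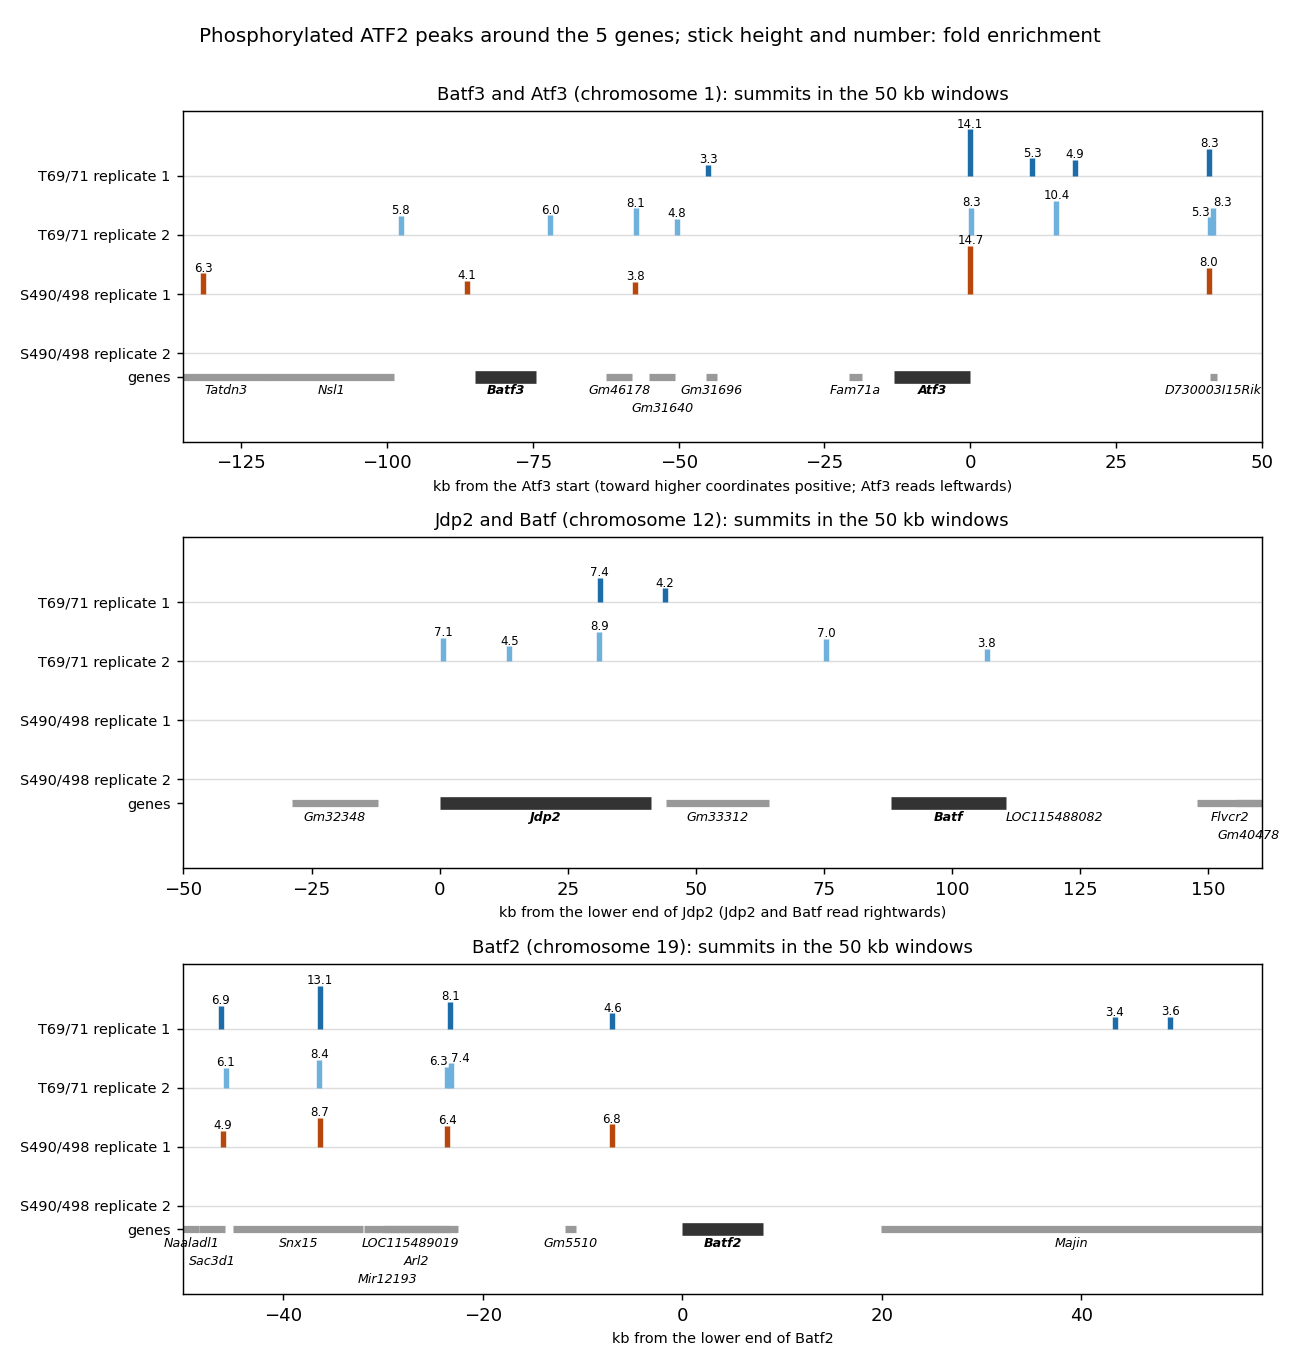
Summits over the 5 genes and within 50 kb, 1 row per library, with sticks and numbers giving fold enrichment and bars below giving genes, in kb from a gene end or start. The Atf3 start and the region 41.0 kb upstream have peaks in 3 libraries. Jdp2 and Batf have peaks only in the T69/71 libraries, and Batf2 has none over the gene. Replicate 2 of S490/498 has none in any window. Any window peak is found for 50.7% of protein-coding genes in replicate 1 of S490/498 and 2.86% in replicate 2.

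Jdp2, at chr12:85598656-85639878, had peaks with T69/71 and none within 50 kb with S490/498. Near 1 of the 3 listed starts of Jdp2, replicate 2 of T69/71 alone had a peak, chr12:85599192-85599359. It had a fold of 7.09, 13 fragments and rank 5892 of 14716. The summit lay 645 bp from the lower gene end, 115 bp upstream of the start at 85599416 and 1 bp from the CRE core. At 168 bp the peak covered 168 of the 300 bases of that promoter and left out the C/EBP-ATF word. Of 1430 regions of like rank in that library (within 5 points, chosen after its value was seen), 54.2% were also marked in replicate 1 of T69/71 and 32.1% in replicate 1 of S490/498.

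Inside Jdp2, both T69/71 libraries shared 1 region. It spanned chr12:85629666-85630224 in replicate 1, with a fold of 7.37 and 13 fragments, and chr12:85629727-85630014 in replicate 2, with a fold of 8.90 and 16 fragments. Its summits lay 9960 and 10072 bp from the upper end of the gene, and it ranked in the top 32.4% and 22.8%. It was the only region shared by both T69/71 libraries over or within 50 kb of Jdp2 or Batf. Among 889 regions of both T69/71 libraries with a like rank in replicate 1 (chosen in the same way), 55.7% had a peak in replicate 1 of S490/498, where this one had none. That library held fewer peaks (7132), and lower depth and less binding cannot be told apart there. Weaker single peaks lay inside the gene in replicate 2 (fold 4.54) and 2734 bp beyond its upper end, near the pseudogene Gm33312, in replicate 1 (fold 4.25).

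Batf, at chr12:85686720-85709087, begins 46.8 kb beyond Jdp2 and had no gene-end peak in any library. Its single inner peak came from replicate 2 of T69/71, chr12:85705142-85705538, with a fold of 3.82, 5 fragments and rank 14384 of 14716. That rank is in the lowest part of the list, at the top 97.7%. The nearest other peak lay 12.6 kb before the start, in the same library, with a fold of 6.96. The CRE core in the Batf promoter thus stood in no peak in these lists, which does not show that it is unbound.

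Batf3, at chr1:191098414-191108943, lies 61.4 kb from Atf3 and had no gene-end peak either. Its nearest summit lay 1345 bp before the start, in replicate 1 of S490/498 alone, with a fold of 4.08, 4 fragments and rank 6492 of 7132. This summit is just outside the limit of 1 kb, while the Jdp2 summit at 645 bp is the farthest inside it. Replicate 2 of T69/71 had a peak 2414 bp beyond the other end, with a fold of 5.98, and one 12.7 kb before the start, near Nsl1, with 5.79. Farther out, replicate 1 of S490/498 had a peak 46.6 kb before the start, inside Tatdn3, with a fold of 6.29, 8 fragments and a width of 689 bp. No region between the gene and 17.0 kb from it was found in 2 libraries.

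Batf2, at chr19:6164397-6172476, had no peak over the gene or within 7 kb of it. The nearest region, chr19:6157208-6157568, lay 7004 bp below the lower end in replicate 1 of T69/71 (fold 4.65) and 7085 bp in replicate 1 of S490/498 (fold 6.82). It lay outside any listed gene, and replicate 2 of T69/71 had no peak there. The other shared regions of this window lay inside or at the ends of other genes. One lay inside Snx15, a sorting nexin gene, with folds of 13.1, 8.40 and 8.72 in replicate 1 of T69/71, replicate 2 of T69/71 and replicate 1 of S490/498. The others lay at the ends of Sac3d1 and of Arl2, a small GTPase gene, where the noncoding gene LOC115489019 also ends. At Sac3d1, the summit in replicate 2 of T69/71 was also within 1 kb of an end of Snx15. Replicate 1 of T69/71 alone had 2 weak peaks inside Majin, with folds of 3.45 and 3.58. Atf3 and Batf2 each had 14 peaks over the gene or within 50 kb, summed over the libraries, as many as or more than which 5.38% of protein-coding genes had. Batf3 had 8 (22.4% of genes had as many or more), Jdp2 6 (33.4%) and Batf 3 (56.4%). The windows of Atf3 and Batf3 overlap, as do those of Jdp2 and Batf, so some peaks were counted for both genes. For Atf3, 3 of the 14 were at the gene end, and for Batf2, 0 were.

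Over the 5 genes, 1 (Atf3) had a gene-end peak in both T69/71 libraries, against 21.1% of all protein-coding genes. In replicate 1 of T69/71 it was 1 gene (27.5% of all genes), in replicate 2 it was 2 genes (27.9%), and in replicate 1 of S490/498 it was 1 gene (17.9%). In replicate 2 of S490/498 it was 0 (0.224%), and hence 0 in both S490/498 libraries (0.178%). These counts are close to these backgrounds, but 5 genes are too few to tell whether the group differs from them. The pattern of Atf3, a gene-end peak in all 3 larger libraries, was that of 14.3% of genes, and that of Jdp2, in replicate 2 of T69/71 alone, of 5.83%. Batf, Batf2 and Batf3 had none in any library, like 64.6% of genes. Mean counts were 1.5 genes for T69/71 and 0.5 for S490/498 (exact two-sided permutation test of 4 libraries, p = 0.667, where 0.333 is the smallest p possible).

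The windows of the 5 genes held 39 distinct peaks, 13 and 17 in replicates 1 and 2 of T69/71, 9 in replicate 1 of S490/498 and 0 in replicate 2. A window with any peak is common, at 63.5%, 66.4%, 50.7% and 2.86% of genes in the same order. The peaks formed 24 regions when overlapping ones were joined, and 8 of them (33.3%) had peaks in 2 or more libraries, against 37.8% of regions in the whole series. In 5 regions the peak was in all 3 larger libraries, where 19.3% of regions in the series had peaks in 3 or more libraries. These were the Atf3 start, the region at D730003I15Rik and the regions at Sac3d1, Snx15 and Arl2. Of the regions found in 1 library, 8 were from replicate 2 of T69/71, 6 from its replicate 1 and 2 from replicate 1 of S490/498.

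**Figure D3:**
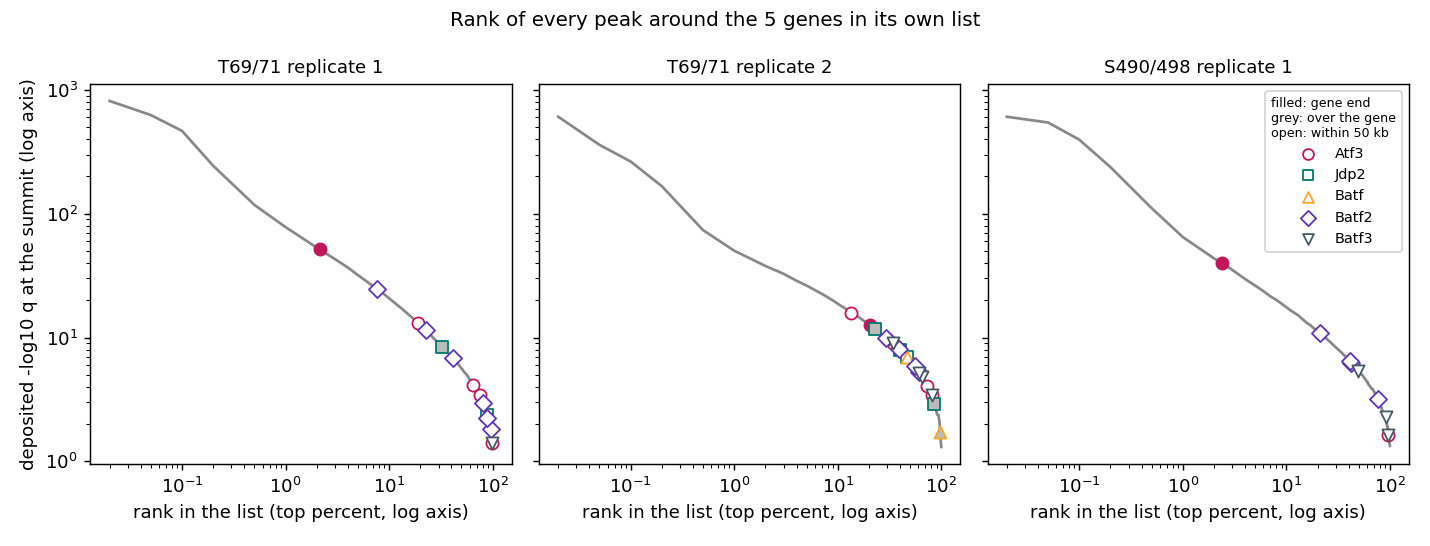
Deposited −log10 q against rank in the list (both on log axes) for the 3 libraries with peaks around the genes; the grey line is the whole list and each symbol a peak, drawn for each gene whose window holds it. The Atf3 start lies in the top 2.17% and 2.38% of both replicates 1 and in the top 20.4% of replicate 2 of T69/71, and all other gene-end and inner peaks lie lower; ranked by fold, the value of 2.17% for replicate 1 of T69/71 becomes 3.67%.

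The dimer partners of these factors were described from lists chosen by name. Of 32 AP-1, ATF, CREB, C/EBP, Maf and IRF genes, 20 had a gene-end peak in both T69/71 libraries, where 21.1% of all protein-coding genes did. The count was also 20 in replicate 1 of S490/498, where 17.9% of all genes had one, and 18 genes were in both counts. Of the Jun genes 2 of 3 were marked in both T69/71 libraries, of the Fos genes 3 of 4, of Atf2 and its paralogues 2 of 3 and of the CREB genes 3 of 3. Jun, which encodes 1 of the Jun proteins, had folds of 18.2 and 14.6 with T69/71 and 15.4 in replicate 1 of S490/498. Fosb, whose protein also pairs with Jun, had 14.5, 9.67 and 12.4, and Creb5, a paralogue of Atf2, had 15.1, 13.2 and 14.3. In these 3 genes, as in Atf3, replicate 2 of T69/71 gave a lower fold than replicate 1. Over the 20 partner genes marked in both T69/71 libraries, the fold was lower in replicate 2 for 10 and higher for 10, such as Creb1 with 12.9 and 14.2.

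Atf7, another Atf2 paralogue, was the 1 partner gene with a gene-end peak in all 4 libraries, with folds of 9.75, 10.4, 6.93 and 6.35, a pattern found in 0.164% of all protein-coding genes. Its peak was in the top 38.5% of replicate 1 of S490/498. In replicate 2 of S490/498, the small list that stood apart, it took rank 197 of 435, the top 45.3%. The partner genes with none in any library were Fosl1, Cebpb, Cebpe, Maf, Mafg, Nrl and Irf8. Of the IRF genes that work with BATF, Irf4 had a gene-end peak in replicate 2 of T69/71 alone (fold 3.62, rank 13407 of 14716). Of 11 kinase genes upstream of JUN and ATF2, 5 had a gene-end peak in both T69/71 libraries, beside 21.1% of all genes. No test was run on these lists.

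**Figure D4:**
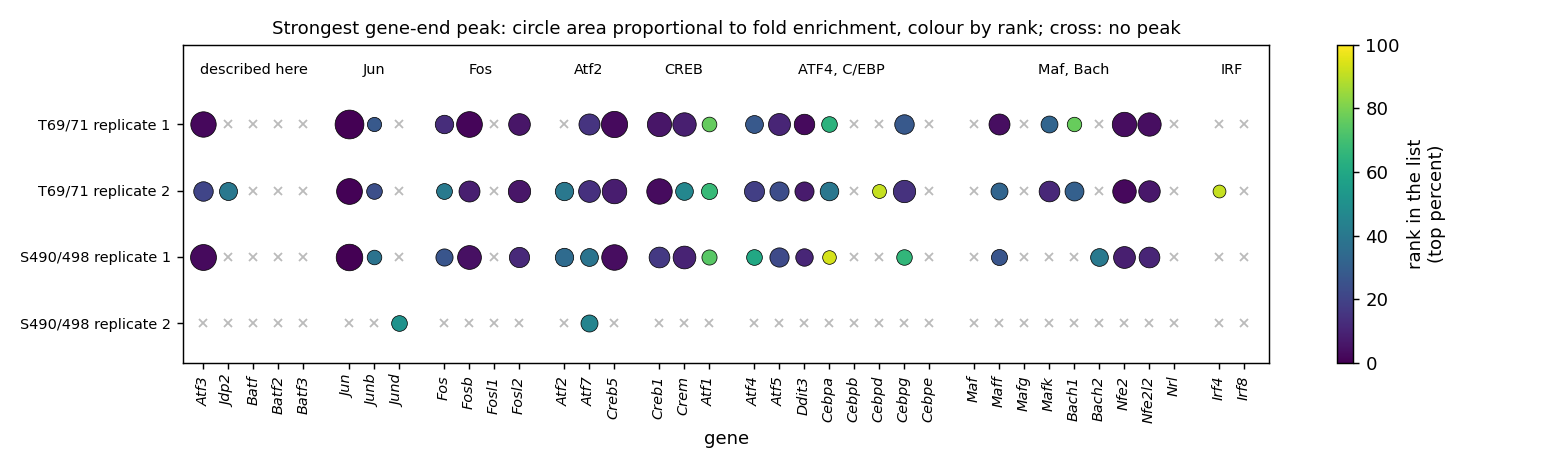
Strongest gene-end peak of the 5 genes (left) and of 32 partner genes in each library, with circle area proportional to fold enrichment, colour giving rank in the list, and crosses for no peak. Atf3 has a peak in 3 libraries and Jdp2 in 1, while Batf, Batf2 and Batf3 have none; Atf7 has one in all 4 libraries.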

How the data were processed

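Per the labels' protocols, 2000 to 5000 sorted cells and 17 to 20 PCR cycles went into each CUT&Tag library. Per the submitters' processing notes, the build was mm10 and the programs were MACS2, ChIPseeker, FastQC 0.11.5 and Bowtie2 2.2.9. The sources used here do not state the peak calling settings, duplicate removal or a control, and no control library was analysed. The authors' peak caller was run on each library separately, and the authors deposited 1 list per library with a fold enrichment (a ratio over local background) computed at each summit. The −log10 p and −log10 q values at the summit were computed by the same caller and deposited by the authors. The deposited score is, per the values the authors deposited, 10 times −log10 q cut to a whole number. Every list has its own background, so folds set side by side across lists are descriptive.

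Peaks on chromosomes 1-19, X and Y were kept and ranked by −log10 q within each list. Gene positions came from a RefSeq table of GRCm38.p6; exon positions, genome sequence and protein sequences were not used here. Other gene-end distances, windows, q thresholds and overlaps were tried as alternatives. Peaks of different libraries were joined when they overlapped by 1 bp. The fragments over a summit were recovered as the whole number that solves the MACS2 fold and Poisson p equations within 0.001 of −log10 p, which succeeded for 100% of peaks in 3 libraries and 99.8% in the other (−log10 p up to 250). The method was tested on simulated data. These did not reach the background coverage at the Atf3 start in both replicates 1 (3.59 with T69/71, 2.27 with S490/498). Nor did they reach down to the lowest fragment counts reported. Python 3.11.15, pandas 2.3.3 and scipy 1.17.1 were used.

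All 5 genes are described. Also named are genes at or nearest to their peaks, the 5 genes closest to Atf3 in rank, and partner genes with a gene-end peak in all 4 libraries or in none; Jun, Fosb, Creb5, Creb1 and Irf4 were added after their values were seen. One partner gene is not reported here. The genes and lists were chosen with earlier results of these data known.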

Additional observations from a re-analysis of the deposited data

How the results depend on the processing

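The count of the 5 genes with a gene-end peak in both T69/71 libraries stayed at 1 with summits within 500 bp or 2 kb and with −log10 q of at least 5. Leaving out 1 library gave a range of 1 to 2 for T69/71 (2 in replicate 2 alone, where Jdp2 joined Atf3) and 0 to 1 for S490/498 (1 in replicate 1 alone). For partner genes in both S490/498 libraries the count was 1, against 2 with summits within 2 kb and 2 to 20 with 1 library left out; in both T69/71 libraries it was 17 to 23 under every alternative run. With summits within 500 bp, the genes in replicate 2 of T69/71 went from 2 to 1 as Jdp2 was lost, and partner genes in replicate 2 of S490/498 from 2 to 1. With summits within 2 kb, those in replicate 1 of S490/498 went from 1 to 2 as Batf3 joined. Window peaks in replicate 1 of T69/71 numbered 7 at 25 kb, 24 at 100 kb and 6 with −log10 q of at least 5. They numbered 28 in replicate 2 of T69/71 at 100 kb, and 5 and 18 in replicate 1 of S490/498 at 25 and 100 kb. The 8 regions in 2 or more libraries became 6 with −log10 q of at least 5 or without any 1 of the 3 larger libraries, and remained 8 by number with an overlap of 50%, with summits within 200 bp and without replicate 2 of S490/498. The antibody difference was 1 gene, and 0.5 without replicate 2 of S490/498. Ranked by fold, the Atf3 peak in replicate 1 of T69/71 was in the top 3.67%. The cause of the change in that rank was not tested. The libraries share only a replicate number. With the replicate block, added after the data were seen, the antibody difference was 0 in pair 1 and 2 in pair 2, a mean of 1 gene (exact sign-flip p = 1, smallest possible 0.5). Peaks with 3 to 8 fragments limit the weaker regions, and a missing peak at this depth does not show absent binding.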
